A study of Mus musculus with 15 samples.

Results

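The genes described here drive the cell division cycle. They are 37 genes taken from a written list of cell cycle and DNA replication genes, and 35 of them were measured. Of 14 genes that copy DNA or supply its nucleotides in S phase, 14 were measured. Of 6 genes that control entry into S phase, 5 were measured, and of 17 genes of G2 and mitosis, 16 were measured. The array covered 22180 genes in all. Ccne2, for cyclin E2, had only a probe set shared with other genes, and Ccnb1, for cyclin B1, had none with its name, so neither has a value here. The rule that chose the genes used no measured values, but earlier results of these data were known when it was set.

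RNA of whole kidney was measured on expression arrays in 7 Grhl1 wild-type mice (Grhl1+/+, replicates 1 to 7) and 8 Grhl1 knockout mice (Grhl1-/-, replicates 8 to 15), all aged about 6 months. Grhl1 is a transcription factor of the grainyhead family that acts in epithelia, and the single comparison of the design asks which kidney transcripts differ without it. The sources used here do not give the strain, the sex, the litter, the design of the deleted allele or the array batch. The values are log2 levels per probe set, summarised before deposit by RMA (robust multi-array average), and differences are knockout minus wild type on that log2 scale. RMA compresses dim probe sets, so a difference of a low gene understates the difference of its transcript. The series counts mice, so each array stands for 1 animal.

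A cell that divides first licenses its replication origins by loading the Mcm2 to Mcm7 helicase with Cdc6 and Cdt1, and the origins fire in S phase. E2F transcription factors switch these genes on once cyclin D and cyclin E kinases have inactivated the retinoblastoma protein. Genes of G2 and mitosis follow later under other promoter elements, and their products condense chromosomes, build the spindle and degrade cyclins. Most tubule cells of the adult kidney are out of cycle, so low levels are expected for many of these genes, though not for all. Several of them have other duties as well: Pcna and Rrm1 also serve DNA repair, and Ccnd1 is present in resting epithelium.

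The libraries differed in ways other than genotype. Of 3 measured Y-linked genes, Eif2s3y, Kdm5d and Uty, the mean level was 8.37 to 8.68 in 10 samples and 3.96 to 4.26 in 5 samples. The 10 samples with Y-linked transcripts were replicates 1 to 5 of the wild type and 8 to 12 of the knockout, and the 5 without them were replicates 6 and 7 of the wild type and 13 to 15 of the knockout. Liver transcripts stood out in 3 samples (replicates 3 and 7 of the wild type, replicate 10 of the knockout) and adrenal cortex transcripts in 6 (replicates 2 and 3 of the wild type, replicates 10 to 13 of the knockout). All 9 measured kidney marker genes were present throughout, with gene means from 7.93 to 13.5. The means of 13 lymphocyte and plasma cell genes ran from 6.41 to 7.13 in wild type and from 6.10 to 7.40 in knockout. Over all samples 2 of the 13 were higher in knockout, and among the 5 samples without Y-linked transcripts 11 of the 13 were. The shares over all probe sets were 54.6% and 55.8%. Fewer cells of a type and less RNA per cell cannot be told apart in bulk tissue. Grhl1 itself, whose probe set may lie outside the deleted part, measured 4.96 to 5.25 in wild type and 4.40 to 4.92 in knockout, without overlap, a difference of -0.38 (SE 0.07, adjusted p = 0.113, exact permutation p = 0.000311).

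The promoters of the S phase and the mitotic genes differ in their letters, which is why a few are shown before the values. RefSeq windows from 250 bases before to 50 bases after a transcript start (build GRCm38.p6) were found for 29 of the 37 genes, in 30 windows. Each sequence below is the 200 bases before the gene's RefSeq start, written 5′ to 3′ on the gene's strand. Capitals mark E2F letters (TTTCCCGC, TTTCGCGC, TTTGCCGC or TTTGGCGC, on either strand) or the letters of the cell cycle homology region, CHR (TTTGAA or TTCGAA, on either strand).
Mcm6, chr1:128359706-128359905, minus strand: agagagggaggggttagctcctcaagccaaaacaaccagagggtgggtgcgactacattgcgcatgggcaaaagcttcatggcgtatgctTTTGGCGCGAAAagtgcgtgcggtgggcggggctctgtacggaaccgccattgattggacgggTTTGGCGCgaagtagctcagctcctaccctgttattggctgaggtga
Cdk1, chr10:69352913-69353112, minus strand: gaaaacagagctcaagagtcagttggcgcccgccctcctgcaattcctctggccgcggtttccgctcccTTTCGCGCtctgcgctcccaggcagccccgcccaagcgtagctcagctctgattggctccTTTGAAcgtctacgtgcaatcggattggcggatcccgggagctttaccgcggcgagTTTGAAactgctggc
Cdc20, chr4:118437344-118437543, minus strand: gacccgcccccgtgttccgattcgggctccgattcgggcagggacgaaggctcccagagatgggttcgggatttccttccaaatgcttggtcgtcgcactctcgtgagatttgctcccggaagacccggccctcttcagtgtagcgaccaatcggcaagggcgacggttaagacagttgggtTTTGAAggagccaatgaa
Kif11, chr19:37376182-37376381, plus strand: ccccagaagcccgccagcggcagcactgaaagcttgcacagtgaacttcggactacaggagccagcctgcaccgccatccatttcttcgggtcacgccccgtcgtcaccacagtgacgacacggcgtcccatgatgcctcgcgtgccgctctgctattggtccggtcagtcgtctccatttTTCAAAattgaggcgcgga
Ube2c, chr2:164769729-164769928, plus strand: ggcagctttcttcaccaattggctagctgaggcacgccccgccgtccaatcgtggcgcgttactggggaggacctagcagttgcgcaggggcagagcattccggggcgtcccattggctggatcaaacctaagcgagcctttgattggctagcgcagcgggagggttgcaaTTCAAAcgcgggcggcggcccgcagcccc

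Mcm6 held 3 E2F matches, at 110, 106 and 47 bases before the start, of which the first pair overlap each other. Cdk1 held 1 E2F match and 2 CHR matches, at 71 and 15 bases before the start. In Cdc20, Kif11 and Ube2c the CHR letters lay 18, 19 and 29 bases before the start. E2F letters were present in 6 of 12 windows of S phase genes, in 1 of 4 windows of G1/S regulators and in 1 of 14 windows of mitotic genes, and in 2.26% of all 32851 windows. CHR letters together with CCAAT, in either orientation, were present in 12 of 14 windows of mitotic genes, in 2 of 12 windows of S phase genes and in 7.52% of all windows. CHR letters, with or without CCAAT, were present in 19.2% of all windows, and CCAAT, with or without CHR letters, in 37.4%. These counts include windows of Mcm5, Mcm7, Cdc6 and Top2a at a transcript start other than the gene's outermost start. Mcm5, Mcm7 and Cdc6 are among the S phase genes with E2F letters, and Top2a among the mitotic genes with CHR letters and CCAAT. A match to letters is a description and does not show that a factor binds there.

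Over all 15 samples, no cell cycle gene differed between genotypes at an adjusted p under 0.05. This count, 0 of 35, stands beside 0.0128% of all 23521 tested probe sets (3 of them), in limma with Benjamini-Hochberg adjustment over all probe sets. At an unadjusted p under 0.05 the count was 2 of 35, Cdt1 and Ccnd1, both higher in knockout, against 5.55% of all probe sets in either direction and 3.49% higher in knockout. Leaving out 1 sample gave 2 or 3 such genes, except that there were 6 without knockout replicate 10 and 4 without knockout replicate 12 or wild-type replicate 7. With the mean of the Y-linked genes as a covariate 0 of the 35 passed the threshold and 4 had an unadjusted p under 0.05, against 0.0595% and 8.71% of all probe sets. The sign leaned one way: 29 of 35 genes had a higher mean in knockout, against 54.6% of all probe sets. The lean was small, with a median difference of 0.08 over the 35 genes and 0.0083 over all probe sets. For no gene did the genotypes separate without overlap, which 0.123% of all probe sets did.

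To place the levels, 1108 probe sets of olfactory receptor genes, which kidney is expected to transcribe little, had a median of 3.22 and a 95th percentile of 5.31. The mean over 15 samples lay above that percentile for 13 of 14 S phase genes, 3 of 5 G1/S regulators and 11 of 16 mitotic genes. Those at or below it were Cdc6, E2f7, E2f8, Top2a, Birc5, Bub1, Bub1b and Kif20a. Probe sets differ in brightness for equal transcript, so this places each gene only against the array's dim range.

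The S phase genes showed small differences that were mostly positive. Of 14, 10 had a higher mean in knockout and 4 (Mcm3, Mcm6, Pcna and Tk1) a lower one, with differences from -0.07 to 0.20 and a median of 0.06. Of all probe sets 54.6% were higher in knockout. Cdt1, the licensing factor that loads the Mcm helicase, measured 6.48 at the lowest, 6.54 at the median and 6.77 at the highest in wild type, and 6.58, 6.83 and 6.97 in knockout. The groups overlapped, with 6 of 8 knockout samples above every wild-type sample. The difference was 0.20 (SE 0.07, 1.15-fold, unadjusted p = 0.00791, adjusted p = 0.672, exact permutation p = 0.0126). Mcm2, a subunit of the helicase ring, measured 6.99, 7.11 and 7.20 in wild type and 7.05, 7.21 and 7.34 in knockout, a difference of 0.10 (SE 0.05, adjusted p = 0.914, exact permutation p = 0.0364). Its groups overlapped over most of their range. Tyms, thymidylate synthase, measured 7.67, 7.96 and 8.33 in wild type and 7.93, 8.16 and 8.37 in knockout, a difference of 0.17 (SE 0.09, adjusted p = 0.935). Pcna, the sliding clamp of the replicative polymerases, measured 9.51, 9.59 and 9.86 in wild type and 9.52, 9.66 and 9.75 in knockout. Its means differed by -0.0021 (SE 0.06, adjusted p = 0.999), less than the spread within either genotype.

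None of the other S phase genes passed the threshold. Among the remaining helicase subunits the differences were -0.02 for Mcm3, 0.08 for Mcm4, 0.04 for Mcm5, -0.06 for Mcm6 and 0.09 for Mcm7, with SEs from 0.05 to 0.09. The difference of Mcm7 (SE 0.05, exact permutation p = 0.0437, adjusted p = 0.937) was a little larger than its SD within wild type or knockout, 0.08 in both. Rrm1, the large subunit of ribonucleotide reductase, differed by 0.02 (SE 0.12), and Tk1, cytosolic thymidine kinase, by -0.07 (SE 0.09). Cdc6 differed by 0.09 (SE 0.08), the helicase cofactor gene Gins2 by 0.04 (SE 0.07) and Pole, the leading-strand polymerase, by 0.08 (SE 0.07). Every adjusted p among these 10 genes was 0.937 or above.

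Among the 5 measured G1/S regulators, Ccnd1 stood apart from the rest. Ccnd1 encodes cyclin D1, which couples growth signals to retinoblastoma protein inactivation. It measured 10.60 at the lowest, 10.72 at the median and 10.83 at the highest in wild type, and 10.75, 10.85 and 11.04 in knockout. Every knockout sample was above all wild-type samples except replicate 7, and the groups overlapped only through that sample. The difference was 0.16 (SE 0.05, 1.12-fold, unadjusted p = 0.0058, adjusted p = 0.652, exact permutation p = 0.00389). E2f1, an activating E2F, measured 6.34, 6.71 and 6.87 in wild type and 6.58, 6.83 and 6.95 in knockout, a difference of 0.12 (SE 0.08, adjusted p = 0.975). E2f8, an atypical repressive E2F, measured 5.09, 5.24 and 5.57 in wild type and 4.94, 5.20 and 5.50 in knockout, a difference of -0.10 (SE 0.08, adjusted p = 0.984). Ccne1, for cyclin E1, differed by -0.03 (SE 0.05) and E2f7, the other atypical E2F, by 0.03 (SE 0.05). The groups of E2f1, E2f8, Ccne1 and E2f7 overlapped widely.

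All 16 measured genes of G2 and mitosis had a higher mean in knockout, against 54.6% of all probe sets. Their differences ran from 0.02 to 0.21 with a median of 0.09, and none passed the threshold or an unadjusted p under 0.05. Cdk1, the kinase that drives entry into mitosis, measured 5.76 at the lowest, 6.11 at the median and 6.22 at the highest in wild type, and 5.62, 6.22 and 6.77 in knockout. The difference was 0.21 (SE 0.16, adjusted p = 0.979), and the knockout range held the whole wild-type range. Ccnb2, its cyclin partner B2, measured 6.43, 6.56 and 6.69 in wild type and 6.45, 6.69 and 7.17 in knockout, a difference of 0.19 (SE 0.10, adjusted p = 0.937). Mki67, the proliferation antigen that coats mitotic chromosomes, measured 5.67, 5.92 and 6.41 in wild type and 5.68, 6.06 and 6.44 in knockout, a difference of 0.08 (SE 0.12, adjusted p = 0.997). These groups covered almost the same range. Top2a, the topoisomerase that untangles sister chromatids, measured 4.72, 4.91 and 5.03 in wild type and 4.50, 4.93 and 5.35 in knockout, a difference of 0.06 (SE 0.13, adjusted p = 0.997).

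Cdc20, an activator of the ubiquitin ligase that starts anaphase, measured 5.63, 5.76 and 5.97 in wild type and 5.72, 5.90 and 6.14 in knockout, a difference of 0.13 (SE 0.07, adjusted p = 0.937). Kif11, the motor that separates spindle poles, measured 5.17, 5.44 and 5.52 in wild type and 5.33, 5.50 and 5.63 in knockout, a difference of 0.10 (SE 0.06, adjusted p = 0.959). Both pairs of groups overlapped. The differences of the other 10 mitotic genes ran from 0.02 for Aurkb, the kinase of the chromosomal passenger complex, to 0.17 for Ube2c, the ubiquitin-conjugating enzyme of the same ligase. Some genes spread more widely in knockout: the SD of Cdk1 was 0.17 in wild type (n = 7) and 0.43 in knockout (n = 8), and that of Top2a was 0.11 and 0.35.

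**Figure D1:**
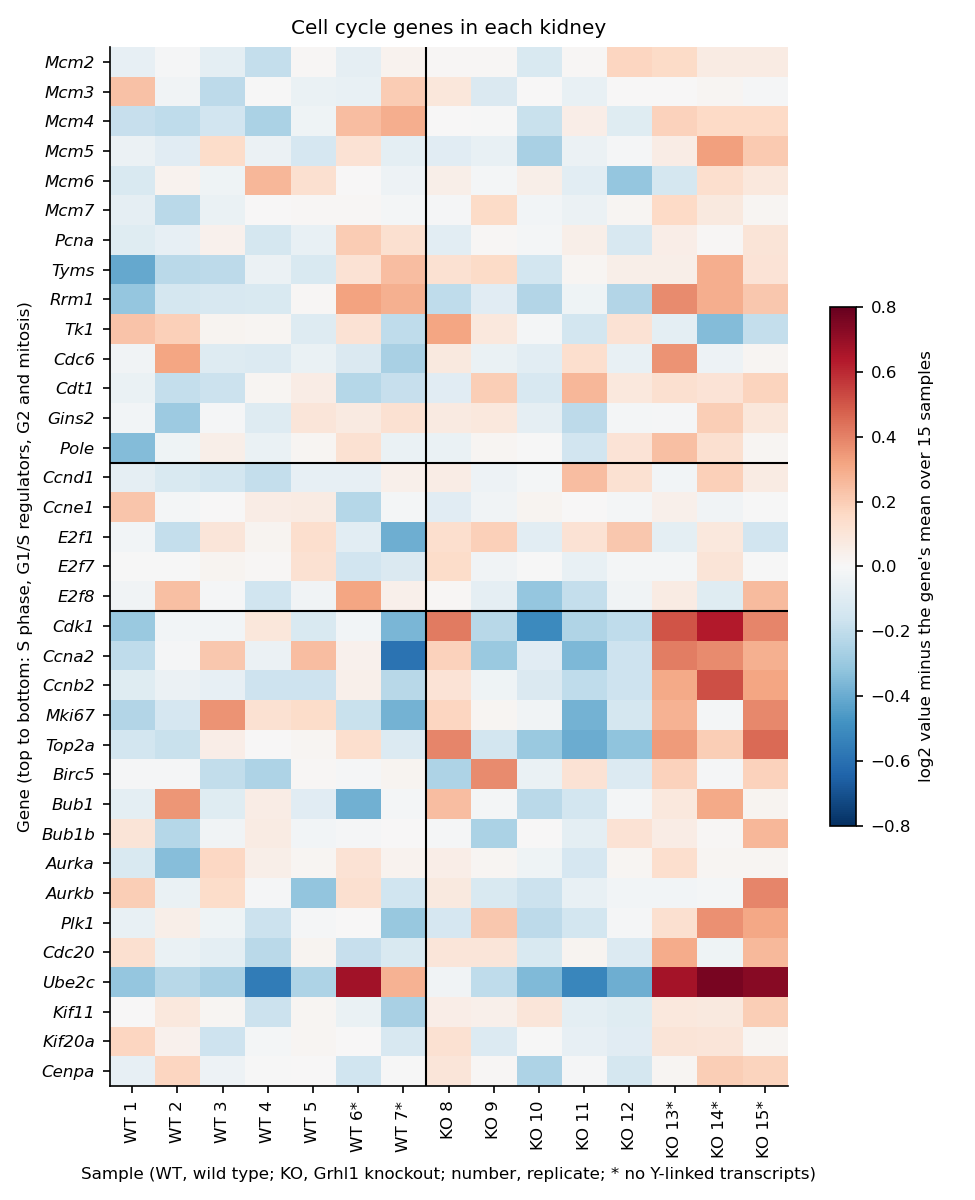
Heat map of the 35 measured genes (rows, in the order S phase, G1/S regulators, G2 and mitosis) in 15 kidneys (columns); colour is the log2 value minus the gene's mean over the 15 samples, and stars mark samples without Y-linked transcripts. The mitotic block is warm in knockout replicates 13, 14 and 15, and in part in replicate 8, while Rrm1, Mcm4 and Ube2c are warm in all 5 starred columns.

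The wide knockout range of the mitotic genes also showed in their mean in each sample. The mean over the 16 mitotic genes was 5.60, 5.62, 5.66, 5.58, 5.63, 5.67 and 5.51 in wild-type replicates 1 to 7. In knockout replicates 8 to 15 it was 5.76, 5.62, 5.51, 5.49, 5.54, 5.88, 5.88 and 5.93. Knockout replicates 13, 14 and 15, which are all the knockout samples without Y-linked transcripts, were the 3 highest of the 15, and replicate 8 was next. Knockout replicates 10, 11 and 12 lay among the 4 lowest, so the knockout mice held both ends of the range. Replicates 10, 11 and 12 were the knockout samples with both Y-linked and adrenal cortex transcripts, and replicate 10 also held liver transcripts. Wild-type replicate 7, the other of the 4 lowest, had the highest liver mean. Knockout replicate 13 and wild-type replicates 2 and 3 held adrenal cortex transcripts too and were not among the lowest. Whether these transcripts bear on the mitotic means was not tested.

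In the 10 samples with Y-linked transcripts, 5 of each genotype, 6 of 16 mitotic genes were higher in knockout and the median difference was -0.03, with 52.2% of all probe sets above 0. Of the 35 genes, 0 passed the threshold in these samples and 2 had an unadjusted p under 0.05, against 0.0085% and 7.72% of all probe sets. In the 5 samples without them, 3 knockout and 2 wild type, 15 of 16 were higher and the median difference was 0.30, with 55.8% of all probe sets above 0 and a median over them of 0.02. In 12 of the 16 genes (75.0%) every knockout sample without Y-linked transcripts was above both wild-type samples without them, against 14.7% of all probe sets. For S phase genes that count was 4 of 14 (28.6%), and 7 of 14 were higher in knockout. No gene passed the threshold within these 5 samples, where 0.00425% of all probe sets did. At an unadjusted p under 0.05, 8 mitotic genes and 1 S phase gene, Cdt1, were higher, against 4.46% of all probe sets. Cdt1 differed by 0.34 (SE 0.07) in these samples and by 0.13 (SE 0.09) in the 10 with Y-linked transcripts.

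**Figure D2:**
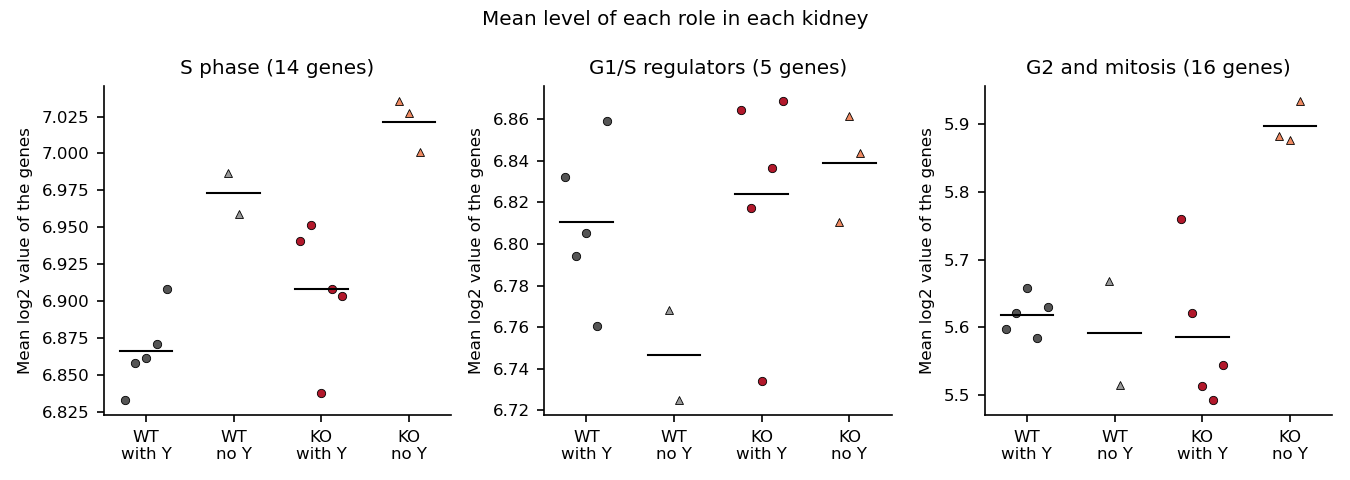
Mean log2 level of the 14 S phase genes, 5 G1/S regulators and 16 mitotic genes in each kidney, by genotype (WT, wild type; KO, knockout) and presence of Y-linked transcripts; bars are group means, and each panel has its own axis, which does not start at 0. The 3 knockout samples without Y-linked transcripts sit at 5.88 to 5.93 in the mitotic panel, above all other samples. Over both genotypes the S phase panel separates samples by Y-linked transcripts narrowly, with means up to 6.95 with them and from 6.96 without.

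Single genes carried the pattern to different degrees. Without Y-linked transcripts, Cdk1 measured 6.11 and 5.76 in wild type and 6.64, 6.77 and 6.52 in knockout, a difference of 0.71 (SE 0.13, 1.63-fold, adjusted p = 0.621). With them it measured 5.83, 6.11, 6.11, 6.22 and 6.01 in wild type and 6.54, 5.91, 5.62, 5.89 and 5.93 in knockout, a difference of -0.08 (SE 0.15). The knockout samples without Y-linked transcripts were above every other sample except replicate 8, whose value lay within their range. Ccna2, for cyclin A2, which acts in S phase and G2, measured 6.19 and 5.56 in wild type and 6.57, 6.54 and 6.44 in knockout without Y-linked transcripts, a difference of 0.64 (SE 0.19). With them its difference was -0.19 (SE 0.11). The 2 wild-type values of Ccna2 lay far apart, and the lower belongs to replicate 7, the sample with the highest mean over the liver genes, 11.3.

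Ccnb2 measured 6.69 and 6.43 in wild type and 6.96, 7.17 and 6.97 in knockout without Y-linked transcripts, a difference of 0.47 (SE 0.12), and differed by 0.03 (SE 0.06) with them. Plk1, a kinase of centrosome maturation and mitotic exit, measured 5.85 and 5.54 against 5.97, 6.21 and 6.16, a difference of 0.42 (SE 0.13), and differed by -0.01 (SE 0.08) with Y-linked transcripts. Mki67 measured 5.88 and 5.67 against 6.33, 6.04 and 6.44, a difference of 0.50 (SE 0.14), and differed by -0.12 (SE 0.12) with them. In these genes each knockout sample without Y-linked transcripts was above both wild-type samples of that kind. In each of them, as in Cdk1 and Ccna2, the lower of the 2 wild-type values was that of replicate 7. Aurka, a spindle pole kinase, went the other way, with -0.02 (SE 0.08) without Y-linked transcripts, and Birc5, the survivin gene, differed by 0.11 in both sets of samples (SE 0.09 without and 0.11 with).

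**Figure D3:**
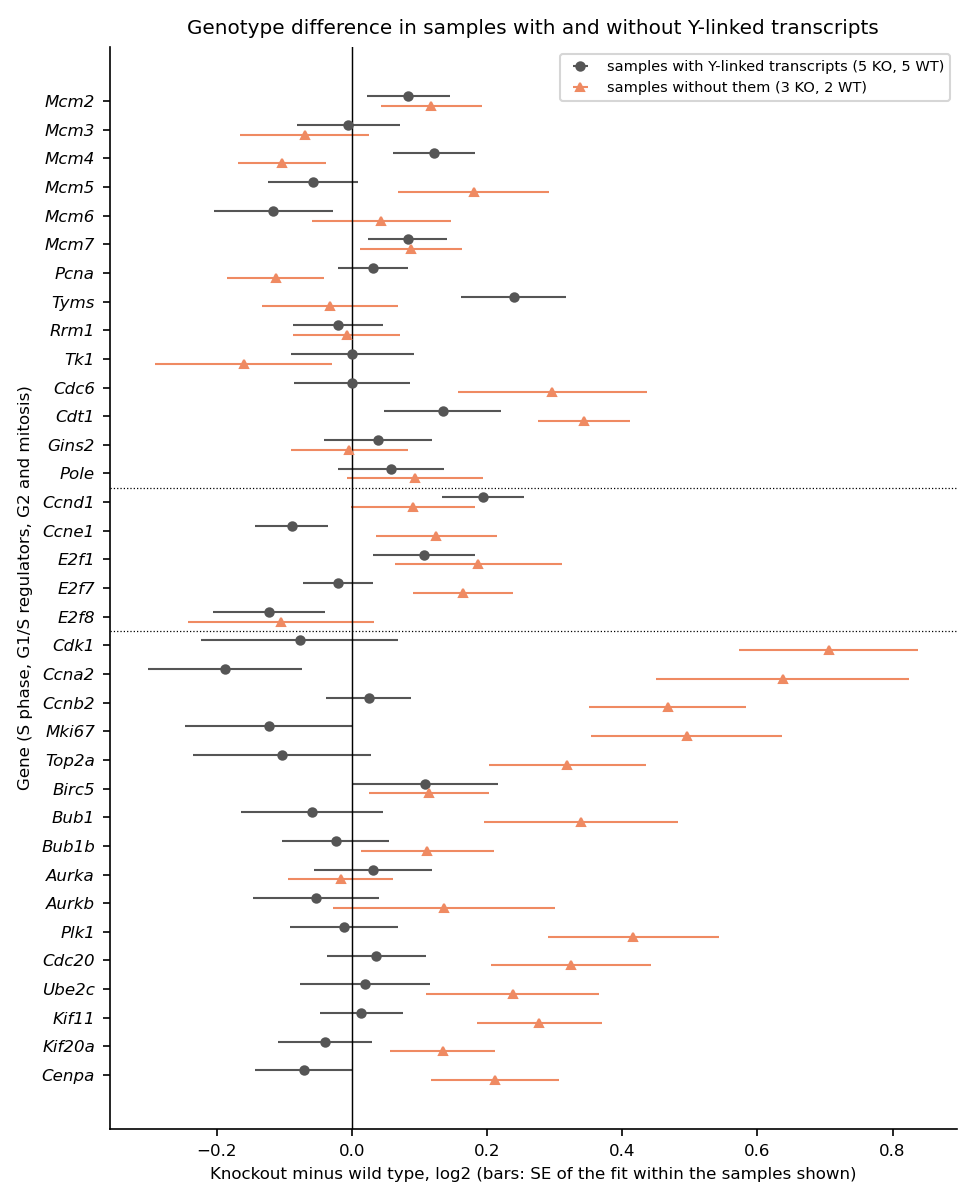
Knockout minus wild type (log2, x axis) for each measured gene (y axis) within the 10 samples with Y-linked transcripts (circles) and the 5 without (triangles); bars are the SE of the fit within those samples. Triangles of Cdk1, Ccna2, Mki67, Ccnb2 and Plk1 lie between 0.42 and 0.71, and the circles of the same genes between -0.19 and 0.03.

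Whether the genotype difference itself depended on Y-linked transcripts was tested as an interaction in limma over all 15 samples. No probe set of the array passed at an adjusted p under 0.05 (0.0% of 23521), and so none of the 35 genes did. The interaction was above 0 in 15 of 16 mitotic genes, 8 of 14 S phase genes and 4 of 5 G1/S regulators, against 53.1% of all probe sets. At an unadjusted p under 0.05 the difference was larger without Y-linked transcripts in 9 of the 35 genes, against 3.83% of all probe sets. These were Cdk1, Ccna2, Ccnb2, Mki67, Plk1, Kif11 and Cenpa (the centromeric histone) of the mitotic genes, and Ccne1 and E2f7. Mcm4 went the other way. The smallest p among the genes was that of Ccna2, with an interaction of 0.83 (SE 0.22, unadjusted p = 0.00236, adjusted p = 0.501). It was 0.51 (unadjusted p = 0.0373) when replicate 7 of the wild type was left out and 1.14 when replicate 6 was. Its adjusted p ranged from 0.0254 to 0.915 over the fits that left out 1 sample or used an intensity trend. It passed only without wild-type replicate 6, where 203 probe sets passed over the whole array and 1 wild-type sample without Y-linked transcripts remained. The interaction was 0.44 (SE 0.12, adjusted p = 0.507) for Ccnb2 and 0.78 (SE 0.24, adjusted p = 0.576) for Cdk1. These values were 0.31 and 0.61 without wild-type replicate 7, and 0.57 and 0.96 without wild-type replicate 6.

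Other transcripts were compared over the same 5 samples. In wild-type replicates 6 and 7 the mean of the lymphocyte genes was 7.02 and 6.41, and in knockout replicates 13, 14 and 15 it was 6.85, 6.38 and 7.40. The mean of 14 myeloid genes was 7.51 and 7.35 against 7.24, 7.18 and 7.61, and that of 10 tubular injury genes was 6.90 and 7.01 against 6.98, 6.96 and 7.14. The mean of 10 endothelial genes was 9.83 and 9.77 against 9.73, 9.71 and 9.72, and that of the 2 measured red blood cell genes was 7.11 and 7.23 against 6.89, 6.91 and 6.96. The ranges of the lymphocyte, myeloid and injury means overlapped between the genotypes, and the endothelial and red blood cell means were higher in wild type. Gene by gene, 11 of 13 lymphocyte genes (mean difference 0.16) and 7 of 10 injury genes (0.07) were higher in knockout in these samples. Of the mitotic genes 15 of 16 were, and of all probe sets 55.8%. The counts were 1 of 14 for myeloid, 2 of 10 for endothelial and 0 of 2 for red blood cell genes. Adrenal cortex transcripts were present in replicate 13 (list mean 9.29) but not in replicates 14 and 15 (4.93 and 4.86). The mitotic means of replicates 13, 14 and 15 were 5.88, 5.88 and 5.93. Among knockout samples with Y-linked transcripts, the mitotic mean was 5.51, 5.49 and 5.54 in replicates 10 to 12, which held adrenal cortex transcripts. It was 5.76 and 5.62 in replicates 8 and 9, which did not. In wild type it was 5.62 and 5.66 in replicates 2 and 3, which held them, and 5.60, 5.58 and 5.63 in 1, 4 and 5. Liver transcripts were present in wild-type replicate 7. Without it the mean mitotic difference among samples without Y-linked transcripts was 0.23 in place of 0.31, with 1 wild-type sample left. Leaving out 1 animal cannot separate its liver transcripts from its other traits. The part that these cell types, lymphocytes included, and the liver and adrenal cortex transcripts have in the mitotic differences was not tested.

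Levels were also set side by side by Y-linked transcripts over both genotypes. The mean over the 14 S phase genes was 6.83 to 6.95 in the 10 samples with Y-linked transcripts and 6.96 to 7.04 in the 5 without them. This was not particular to S phase genes: the endothelial mean was 9.55 to 9.67 and 9.71 to 9.83. The lymphocyte, myeloid, injury and red blood cell means overlapped. In 3 of the 35 genes (8.57%), every sample without Y-linked transcripts was above every sample with them, against 6.82% of all probe sets, a share near the background. Ube2c measured 5.88 to 6.41 with Y-linked transcripts and 6.72 to 7.20 without them. Rrm1 measured 7.18 to 7.49 and 7.70 to 7.87, and Mcm4 6.91 to 7.22 and 7.33 to 7.46. Samples without Y-linked transcripts exceeded those with them by 0.93 in Ube2c, 0.45 in Rrm1 and 0.31 in Mcm4, on the mean over both genotypes. No test was made between these sets of samples, since no label defines them.

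**Figure D4:**
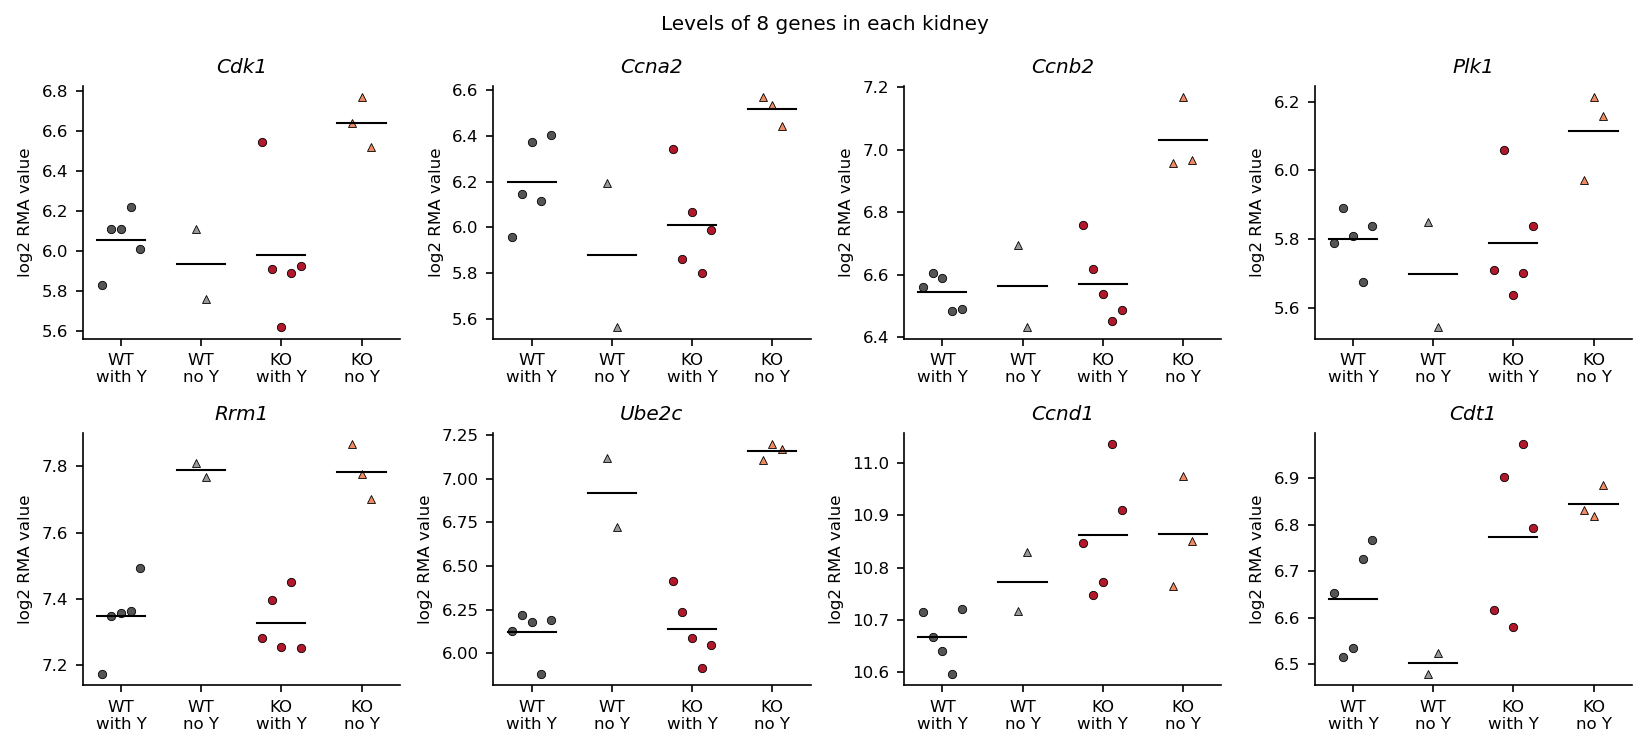
Log2 RMA level of 8 genes in each kidney, by genotype and presence of Y-linked transcripts (with Y, no Y); bars are group means, and no axis starts at 0. Cdk1, Ccna2, Ccnb2 and Plk1 are high in knockout samples without Y-linked transcripts, Rrm1 and Ube2c are high in both genotypes without them, and Ccnd1 and Cdt1 lean higher in knockout.

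The mitotic genes varied together between kidneys more than the S phase genes did. After each genotype's mean was subtracted, the mean Pearson correlation over the 120 pairs of mitotic genes was 0.33 across 15 samples, and 102 of the pairs were above 0. Over the 91 pairs of S phase genes it was 0.12, with 57 above 0, and over the 224 pairs of an S phase with a mitotic gene 0.16. The 10 pairs of G1/S regulators averaged -0.06, and all pairs of probe sets 0.0036. The pairs share samples and are not independent, so these values are descriptions. Within the 10 samples with Y-linked transcripts the means were 0.17 for mitotic pairs, 0.04 for S phase pairs and 0.07 for mixed pairs.

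Over 15 samples Ccnb2 (r = 0.92), Top2a (0.89) and Cdk1 (0.86) followed the mean of the other 15 mitotic genes most closely. Over the 10 samples with Y-linked transcripts Top2a (0.89), Ccnb2 (0.88) and Ube2c (0.82) were highest, and Cdk1 was at 0.71. Birc5 did not follow it (0.02 over 15 samples and -0.38 over the 10). Of the S phase genes, Rrm1 (0.87) and Mcm4 (0.82) followed the mean of the other S phase genes most closely over 15 samples, and Tk1 ran against it (-0.60). Over the 10 samples with Y-linked transcripts Tyms was highest (0.75), Mcm4 was at 0.64 and Rrm1 at 0.48, and Tk1 was at -0.26. Of the pairs of single genes, Rrm1 with Mcm4 had the highest value among S phase genes, 0.89 over 15 samples.

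**Figure D5:**
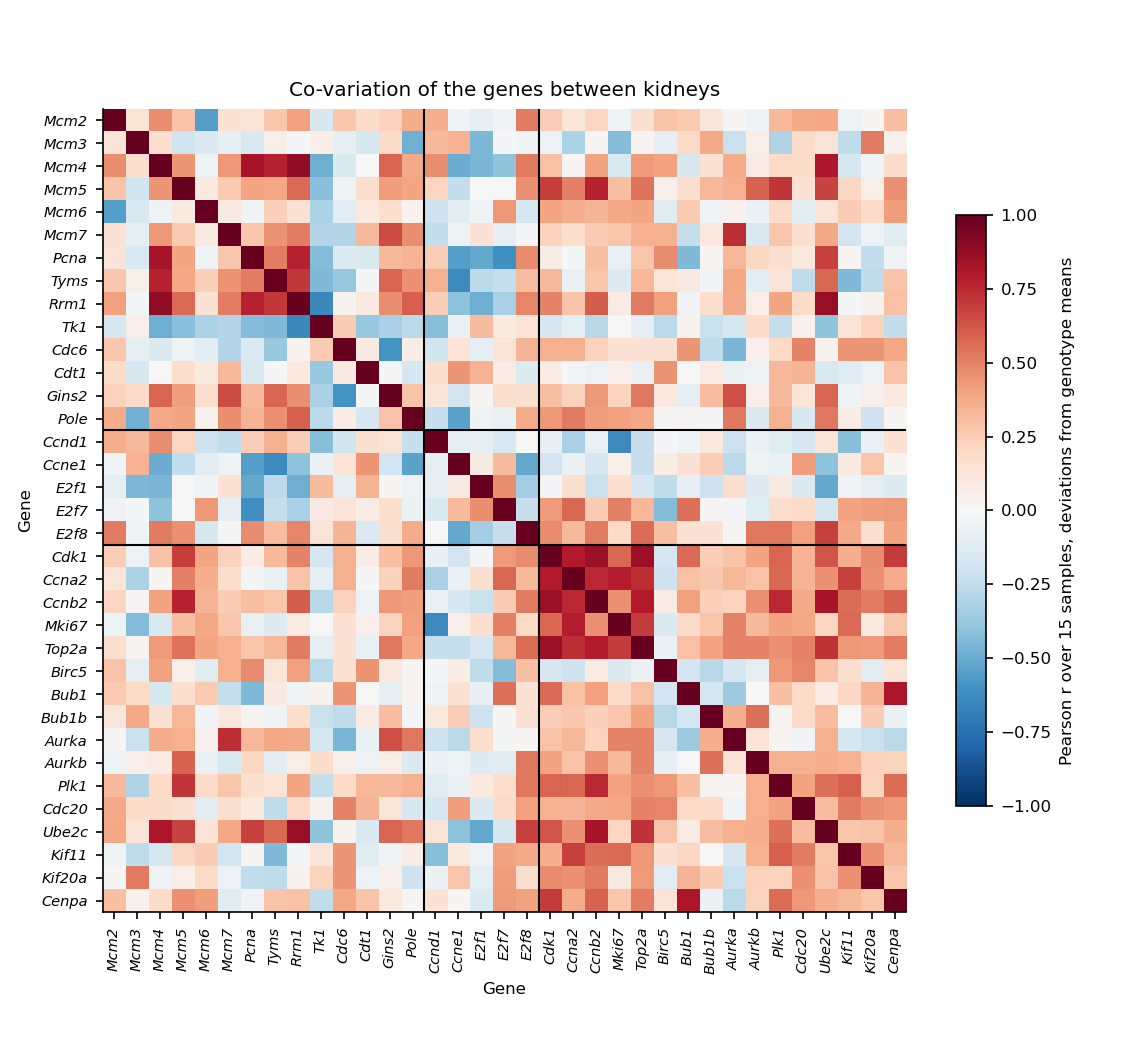
Pearson correlation (colour) of each pair of the 35 genes over 15 samples, after subtraction of the genotype means; lines separate S phase genes, G1/S regulators and mitotic genes. The block of Cdk1, Ccna2, Ccnb2 and Top2a is dark red, and Mki67 is paler against Cdk1 and Ccnb2. Birc5 is pale or blue against most of the mitotic block, and Tk1 is blue against most S phase genes.

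The mean of the S phase genes and that of the mitotic genes correlated at r = 0.67 (Spearman's rho 0.69) across 15 samples after subtraction of the genotype means. Without knockout replicates 13 and 14, whose S phase means before that subtraction lay farthest from the median, r was 0.51. Within the 8 knockout samples r was 0.89, and within the 7 wild-type samples it was -0.06. Without the 3 samples with liver transcripts, which include wild-type replicate 7, r was 0.75. With deviations from the means of genotype and Y-linked status together r was 0.52, among only the 10 samples with Y-linked transcripts 0.57, and without the 6 samples with adrenal cortex transcripts it was 0.39. The points share the array and the tissue piece, and no p is given for means over chosen genes.

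Wider lists of the pathway, 5 in all, gave no gene past the threshold either. Their counts at an unadjusted p under 0.05 stand beside 5.55% of all probe sets, and their counts of genes higher in knockout beside 54.6%. Of 46 measured genes of a wider replication list, 31 were higher in knockout, the median difference was 0.04, and 3 were higher and 1 lower at an unadjusted p under 0.05. Orc6, of the origin recognition complex, differed by 0.18 (SE 0.05, adjusted p = 0.604), and Gmnn, for geminin, which binds and inhibits Cdt1, by 0.23 (SE 0.08, adjusted p = 0.683). The lower gene was Rrm2, the small subunit of ribonucleotide reductase, at -0.18 (SE 0.08, adjusted p = 0.896). It lies on chromosome 12, as Grhl1 does, and is 6 genes away in RefSeq order. None of the 37 cell cycle genes lies on chromosome 12. E2f6, 136 genes away on that chromosome, differed by 0.09 (SE 0.07, adjusted p = 0.981).

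Of 55 measured genes of a wider mitosis list, 39 were higher in knockout, the median difference was 0.05, and 7 were higher and 0 lower at an unadjusted p under 0.05. Many of these genes are dim: the mean lay above the olfactory 95th percentile for 23 of the 55, Iqgap3 not among them. Cit, for the citron kinase of cytokinesis, differed by 0.26 (SE 0.07, adjusted p = 0.508), and Iqgap3 by 0.21 (SE 0.07, adjusted p = 0.672). Within the 5 samples without Y-linked transcripts 46 of the 55 were higher in knockout, against 55.8% of all probe sets. In 21 of the 55 (38.2%) every knockout sample of these 5 was above both wild-type samples, against 14.7% of all probe sets. Of 17 genes of the E2F, retinoblastoma and DREAM complexes, 1 was higher at an unadjusted p under 0.05, Lin9 at 0.20 (SE 0.08, adjusted p = 0.773), and Tfdp1, a dimer partner of E2F, came next at -0.10 (SE 0.05, adjusted p = 0.950).

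Of 13 further cyclins and cyclin-dependent kinases and their regulators, 1 was lower at that p, Wee1, the kinase that restrains Cdk1, at -0.22 (SE 0.09, adjusted p = 0.812), and Cdk2 differed by 0.16 (SE 0.09, adjusted p = 0.950). Of 17 cell cycle inhibitors and p53 targets, 8 were higher and 9 lower in knockout, and 2 were higher and 1 lower at an unadjusted p under 0.05. Sesn2, a stress-induced sestrin, differed by -0.25 (SE 0.07, adjusted p = 0.588), and Cdkn2c, an inhibitor of the cyclin D kinases, by 0.21 (SE 0.07, adjusted p = 0.701).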

How the data were processed

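Total RNA of 15 kidneys was prepared for hybridisation with the Ambion WT Expression kit and biotin, per the labels' protocols. The deposited values are log2 probe set summaries that the authors made with RMA, per the submitters' processing notes; the sources used here name no software, version or genome build. The table held 41345 probe sets, with array medians from 5.51 to 5.59. Of these, 23521 carried 1 gene symbol in the platform annotation and were all tested, dim ones included, 1814 carried several and 16010 were unnamed here. Symbols were updated by Entrez ID for 23328 of them and kept for 193. The highest-mean probe set stood for a gene. Scanner files were not used here and signal over background was not tested. Precision is limited by the number of arrays.

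Samples were grouped by their titles and genotype labels. Differences were fitted with limma 3.58.1 in R 4.3.3 (lmFit and eBayes without trend, no covariate, two-sided, Benjamini-Hochberg over 23521 probe sets, threshold 0.05). SEs are the moderated ones of the fit. Exact permutation tests of single genes used all 6435 splits into 7 and 8, two-sided, with a smallest possible p of 0.000155. On simulated data at these group sizes the fit recovered 77.6% of changes of 0.5 log2 units, 97% of 1 and 100% of 1.5. Of its calls 8.04% were false. Smaller changes, such as the differences of the 35 genes over all samples, were not simulated.

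The genes, the gene lists and the split by Y-linked transcripts were chosen with earlier results of these data known. Genes shown with their values by group were Mcm2, Pcna, Ccnd1, Mki67, Top2a, Cdk1 and the 3 of each role with the smallest unadjusted p, and of each wider list the 2 with the smallest p. Genes shown by sample within the Y-linked split were chosen with those values in view. Liver or adrenal cortex transcripts were called present in a sample if the mean of the marker list exceeded that of the median sample by over 1 log2 unit. Promoter windows are RefSeq's, build GRCm38.p6.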

Additional observations from a re-analysis of the deposited data

Results flagged for a closer look

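Of 76 groups of values (a gene or a role mean within a genotype), 6 held a sample far from the others of its group by Dixon's criterion, which chance alone gives in about 1 of 20 groups. Wild-type replicate 2 was the lowest of its genotype for Mcm7 (7.35, next 7.49) and Bub1b (5.04, next 5.24) and the highest for Cdc6 (5.14, next 4.79). Wild-type replicate 1 was the lowest for Pole (5.22, next 5.52). Knockout replicate 15 was the highest for Aurkb (6.16, next 5.84). Knockout replicate 10 had the lowest mean over the 5 G1/S regulators (6.73, next 6.81).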

How the results depend on the processing

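No gene gained a call under the alternatives, which were array weights, an intensity trend, a filter on dim probe sets, the mean of all probe sets of a gene, centring on array medians, a Y-linked covariate, subsets of samples and each sample left out. Of 866 recomputed differences 807 kept their sign and 59 turned it, and 13 of the 35 genes never turned sign. The samples without Y-linked transcripts were analysed on their own only after the data had been seen. Most of the recomputed values lie close to 0.

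With Y-linked transcripts only, the sign turned for Mcm5 (-0.058), Pcna (0.031), Rrm1 (-0.020), Tk1 (0.0007), E2f7 (-0.021), Cdk1 (-0.077), Ccna2 (-0.19), Mki67 (-0.12), Top2a (-0.10), Bub1 (-0.059), Bub1b (-0.024), Aurkb (-0.053), Plk1 (-0.012), Kif20a (-0.040) and Cenpa (-0.071). Without them it turned for Mcm4 (-0.10), Mcm6 (0.044), Tyms (-0.032), Rrm1 (-0.0078), Gins2 (-0.0035), Ccne1 (0.12) and Aurka (-0.017). Array weights turned Pcna (0.021), Ccna2 (-0.027), Mki67 (-0.016), Top2a (-0.016), Bub1 (-0.0057), Kif20a (-0.0016) and Cenpa (-0.023). Centring turned Pcna (0.0017), and the Y-linked covariate turned Rrm1 (-0.0075). Without the samples with liver transcripts Pcna (0.032) and Kif20a (-0.033) turned, and without those with adrenal cortex transcripts Mcm6 (0.015), Pcna (0.0002) and Bub1b (-0.026). With 1 sample left out in turn, differences ran from -0.058 to 0.015 for Mcm3, -0.0088 to 0.076 for Mcm5, -0.026 to 0.032 for Pcna, -0.029 to 0.080 for Rrm1, -0.0082 to 0.069 for Gins2, -0.067 to 0.0094 for Ccne1, -0.0006 to 0.12 for Top2a, -0.0073 to 0.066 for Bub1b, -0.031 to 0.054 for Aurka, -0.038 to 0.052 for Aurkb and -0.0066 to 0.050 for Kif20a.

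The count of genes at an unadjusted p under 0.05, 2 over all samples, was 4 with the Y-linked covariate, 9 without Y-linked transcripts, 4 without the liver samples, 6 without the adrenal samples and 2 to 6 with 1 sample left out. The count of genes higher in knockout was 18 with Y-linked transcripts only and 25 to 30 with 1 sample left out. The mean difference of the G1/S regulators, 0.04, was 0.085 over bright probe sets, where E2f7 and E2f8 drop out, and 0.092 without Y-linked transcripts. The mean mitotic difference, 0.09, was -0.032 with Y-linked transcripts and 0.31 without them, and ran from 0.060 (without knockout replicate 15) to 0.12 with 1 sample left out. Within the samples without Y-linked transcripts it was 0.23 when wild-type replicate 7 was left out, 0.38 when replicate 6 was left out, and between these when a knockout sample was. The correlation of the S phase and mitotic means, 0.67, was -0.062 within wild type, 0.89 within knockout and 0.59 to 0.78 with 1 sample left out. The count of genes with an interaction ran from 0 to 1 with 1 sample left out. The cause of these shifts was not tested.

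No paired analysis was possible because the genotypes share no replicate numbers. The 3 knockout and 2 wild-type samples without Y-linked transcripts limit what the split can show, and dim genes are compressed.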

Other observations

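Outside the 35 genes, 10 probe sets followed the mitotic mean most closely over 15 samples after subtraction of the genotype means. Dnmt1, the methyltransferase that copies DNA methylation onto new strands, led with r = 0.94. Asns, asparagine synthetase, followed with 0.91, and then came Armcx2 (0.88), Adamtsl2 (0.88), Pgam1 (0.87), Cbx5 (0.87), Acta2 (0.87), Hmmr (0.87), Tmem127 (0.86) and Map4k1 (0.86). Over the 10 samples with Y-linked transcripts the r of these genes ran from 0.36 for Pgam1, 0.59 for Tmem127, 0.64 for Adamtsl2 and 0.65 for Hmmr to 0.83 for Dnmt1. Of these only Dnmt1 and Hmmr, a spindle protein, stood on the wider replication or mitosis lists. Hmmr is dim, with a mean level of 3.63. Acta2, smooth muscle actin, and Pgam1, a glycolytic enzyme, are not cell cycle genes. Over the 55 genes of the wider mitosis list the median r with the mitotic mean was 0.31, with 40 above 0, against a median of 0.03 over all probe sets, and within the 10 samples with Y-linked transcripts it was 0.10, with 32 above 0. These 10 were picked as the highest of 23521, so their r values are high by selection.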
